A study of Homo sapiens with 6 samples.

Results

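Transcripts of the Wnt pathway were measured on 6 one-colour expression arrays in Huh7, an established line of human hepatocellular carcinoma. The genes described here are those whose symbol in the array annotation starts with WNT, FZD or SFRP and a digit, or with DKK, together with AXIN1, AXIN2, LEF1, TCF7, TCF7L1, TCF7L2, LRP5, LRP6, LGR4, LGR5, RNF43, ZNRF3, NKD1 and NOTUM. Probe sets with more than 1 symbol were not used. This gave 50 of the 18132 genes tested, measured by 129 of 49293 probe sets. TCF7 is not analysed here, and the 2 probe sets of WNT3 share their annotation with a second gene and were left out, with log2 changes of -0.12 and -0.29 (limma adjusted p = 0.41 and 0.065).

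The labels give 2 groups of 3 arrays, both of Huh7 cells in logarithmic growth. One is control cells, and the other carries the genotype label of a KCa3.1 knockdown and is named KCa3.1 silenced. KCa3.1 is a calcium-activated potassium channel encoded by KCNN4, and the comparison asks which transcripts differ when it is depleted. The labels do not say how it was silenced, what the control cells received, or whether replicates were separate cultures, and they name no batch or scan date. The p-values therefore measure only the spread between these arrays, which may be technical.

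Wnt proteins are secreted, lipid-modified ligands that bind frizzled receptors (FZD) and, in the canonical branch, the co-receptors LRP5 and LRP6. Binding stops a cytoplasmic complex of axin, APC and GSK3 from marking beta-catenin for degradation, and beta-catenin then acts with TCF and LEF factors on target genes. SFRP proteins bind Wnt ligands, dickkopf proteins such as DKK1 block LRP5 and LRP6, NOTUM removes the lipid from Wnt ligands, and RNF43 and ZNRF3 clear frizzleds from the cell surface unless R-spondins engage LGR4 or LGR5. In the liver this pathway maintains the gene programme of hepatocytes around the central vein, and it is often active in hepatocellular carcinoma. Noncanonical branches work through planar cell polarity proteins or calcium, without beta-catenin.

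Values were taken as log2 RMA values relative to a baseline of each probe set, averaged over the probe sets of a gene. Base 2, RMA's usual base, is an assumption, since the base is not given in the sources used here, and every fold and percent rests on it. A value of 0 was taken as the probe set's own baseline. No level of expression can be read from it, and neither can the order of genes by level, nor whether a gene was expressed at all. Differences are given as arrays labelled silenced minus control arrays. Genes with an adjusted p below 0.05 were called (limma, Benjamini-Hochberg over all 18132 genes).

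KCNN4, the target named by the labels, did not differ detectably between the groups. Its values were -0.006, 0.126 and -0.073 on the control arrays and -0.055, 0.089 and 0.011 on the arrays labelled silenced. The log2 difference was -3e-04 with a 95% interval of -0.16 to 0.16 (limma adjusted p = 1, exact two-sided permutation p = 1, smallest possible 0.1). All 3 of its probe sets end in _x_at and can match other genes, and centred values do not show whether KCNN4 was above background. The direction of every result below is that of the labels, which this gene did not bear out.

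Of the 50 Wnt genes 6 were called changed, 12% of them, where 13.3% of all genes were called. FZD3, FZD4, WNT11 and LGR4 were higher on the arrays labelled silenced, and FZD5 and DKK1 were lower. The 4 higher genes stand against 7.14% of all genes called higher, and the 2 lower genes against 6.19% called lower. Only 1 gene, FZD3, was called higher without control replicate 2, control replicate 3 or silenced replicate 3, and 2 were without silenced replicate 1 or 2. The count of 6 fell to 3 without control replicate 2 or silenced replicate 3, where 9.89% and 9.05% of all genes were called. Control arrays and arrays labelled silenced took non-overlapping values in 11 of the 50 genes, 22%, against 29.3% of all genes. The changes were small: they ran from -0.48 to 0.61 on the log2 scale. None of the 50 reached a 2-fold difference (0). Only 118 of all 18132 genes did, a share so small that 0 of 50 does not set these genes apart. The median size of the change, without its sign, was 0.0598 for the Wnt genes and 0.0788 for all genes, and the median change was -0.018 and -0.0058. The share called among these genes was thus close to the share among all genes.

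The regions before the start are shown for 4 of the 6 called genes. These are DKK1, a known feedback target of beta-catenin, and 3 others with an entry in the table used. FZD3 and WNT11 are not shown. RefSeq's promoter table (GRCh38.p14) held 32 of the 50 genes. Each run below holds the 250 bases before the annotated start, 5′ to 3′ on the strand of the gene. Capitals mark a TCF/LEF core (CTTTGAA or CTTTGAT), the TATA box (TATAAA) or the CCAAT box, each searched on both strands.
DKK1, lower, chr10:52314031-52314280, plus strand: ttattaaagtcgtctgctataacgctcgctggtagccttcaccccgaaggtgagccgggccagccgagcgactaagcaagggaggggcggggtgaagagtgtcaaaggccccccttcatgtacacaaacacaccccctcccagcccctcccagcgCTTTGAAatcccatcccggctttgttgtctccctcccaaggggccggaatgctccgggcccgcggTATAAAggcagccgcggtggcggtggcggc
FZD5, lower, chr2:207769907-207770156, minus strand: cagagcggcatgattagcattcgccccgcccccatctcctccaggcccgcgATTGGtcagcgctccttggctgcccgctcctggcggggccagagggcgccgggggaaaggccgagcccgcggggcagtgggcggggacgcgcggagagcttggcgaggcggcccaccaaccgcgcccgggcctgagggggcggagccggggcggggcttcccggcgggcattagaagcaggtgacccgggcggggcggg
FZD4, higher, chr11:86955396-86955645, minus strand: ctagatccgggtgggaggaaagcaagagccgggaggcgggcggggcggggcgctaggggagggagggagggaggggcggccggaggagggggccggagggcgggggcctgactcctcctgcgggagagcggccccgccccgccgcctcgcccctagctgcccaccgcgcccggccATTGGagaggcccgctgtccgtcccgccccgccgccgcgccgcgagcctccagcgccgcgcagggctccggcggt
LGR4, higher, chr11:27472791-27473040, minus strand: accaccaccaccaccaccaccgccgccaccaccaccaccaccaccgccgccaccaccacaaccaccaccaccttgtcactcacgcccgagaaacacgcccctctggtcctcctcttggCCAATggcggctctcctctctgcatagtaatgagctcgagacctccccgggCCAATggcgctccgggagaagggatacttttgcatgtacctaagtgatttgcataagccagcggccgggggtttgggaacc
The DKK1 window held a TCF/LEF core from 95 to 89 bases and a TATA box from 30 to 25 bases before the start. It was the only 1 of the 32 genes with this core in its window, where 5.94% of all 35116 windows in the table held it. The FZD5, FZD4 and LGR4 windows held a CCAAT box, LGR4 in 2 places, as did 32% of all windows. The DKK1 window was 62.8% G and C, and those of FZD5 and FZD4 were 76.8% and 80.8%. These letters are a description of the windows, and binding of a factor was not measured.

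Frizzled receptor genes changed in both directions. Of the 10 frizzled genes 2 were higher, 1 was lower and 7 did not pass, 30% called against 13.3% of all genes. FZD3, a frizzled known for its role in planar cell polarity and axon guidance, read -0.534, -0.729 and -0.39 on the control arrays and 0.234, -0.035 and -0.021 on the arrays labelled silenced. Every array labelled silenced lay above every control array, and the widest gap within a group was smaller than the gap between the groups' means. FZD3 was 1.53-fold higher, a log2 change of 0.61 (means -0.551 ± 0.17 and 0.059 ± 0.152, SD, n = 3 each, SE 0.101, limma adjusted p = 0.0042). Its 3 probe sets rose by 0.60 and 0.66, both called, and had a change of 0.57 that was not called (limma adjusted p = 0.08). With that last and most variable probe set alone the gene was no longer called (limma adjusted p = 0.054).

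FZD5, a frizzled that can signal through beta-catenin, read 0.393, 0.386 and 0.391 on the control arrays. It read -0.076, -0.066 and -0.02 on the arrays labelled silenced, all of which lay below the control arrays. FZD5 was 1.36-fold lower, a log2 change of -0.44 (means 0.39 ± 0.00346 and -0.054 ± 0.0299, SD, n = 3 each, SE 0.051, limma adjusted p = 0.00056). The mean over its probe sets covers a wide range. Its 5 probe sets had changes of -0.88, -0.78, -0.33, -0.14 and -0.09, and the first 3 of these were called. On the probe set with the largest change the control arrays read 0.799, 0.606 and 0.869 and the arrays labelled silenced -0.074, -0.249 and -0.055. That probe set ends in _s_at and can match other genes. Control arrays were less alike on it than in the mean over the 5 probe sets. This span of 0.8 between probe sets was the widest of any of the 50 genes, so the size of the fall depends on the probe set, while all 5 had the same sign.

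FZD4, the receptor of norrin as well as of Wnt ligands, read -0.152, -0.159 and -0.282 on the control arrays and 0.15, -0.013 and 0.084 on the arrays labelled silenced. The groups did not overlap, and the closest arrays of the 2 groups were 1 control at -0.152 and 1 labelled silenced at -0.013. FZD4 was 1.21-fold higher, a log2 change of 0.27 (SE 0.065, limma adjusted p = 0.025). Its 3 probe sets were not called alone, with changes of 0.24, 0.36 and 0.21 (limma adjusted p = 0.08, 0.11 and 0.38). Leaving out control replicate 2 or 3, or silenced replicate 1 or 3, ended the call, with changes from 0.23 to 0.29.

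Among the frizzleds that did not pass, FZD6, which like FZD3 acts in planar polarity, had the largest change, 0.28 (SE 0.129, limma adjusted p = 0.22). It read 0.138, -0.231 and 0.024 on the control arrays and 0.486, 0.289 and 0.006 on those labelled silenced, so the groups overlapped. Its 95% interval of -0.01 to 0.58 is the widest of the 50 genes. FZD1 had a change of -0.15, and FZD2, FZD7, FZD8, FZD9 and FZD10 lay between -0.08 and 0.003. No frizzled can be called dominant from these values, since levels were removed.

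**Figure D1:**
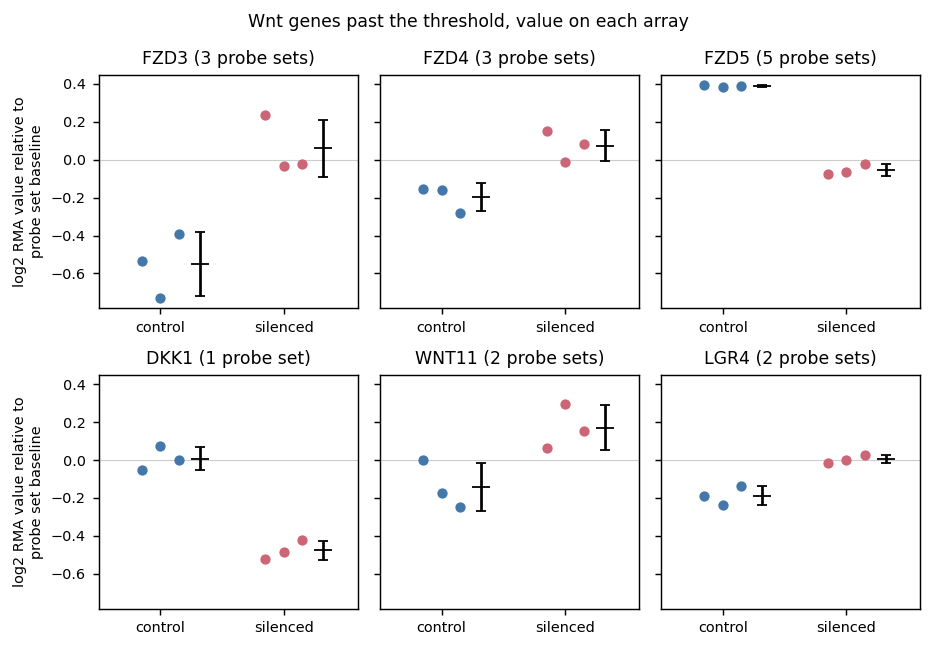
Log2 RMA value relative to the probe set baseline (vertical axis) of the 6 called Wnt genes on each array, averaged over probe sets. Blue points are the 3 control arrays, red points the 3 arrays labelled silenced, and black bars the mean ± SD. In all 6 genes the groups do not overlap. The 3 control values of FZD5 lie almost on each other, from 0.386 to 0.393, as means over 5 probe sets that differ more between arrays.

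Of the 18 Wnt ligand genes 1 was called, 5.56% against 13.3% of all genes, and it was higher. WNT11, a ligand of the noncanonical branch, read 0, -0.176 and -0.248 on the control arrays and 0.063, 0.298 and 0.154 on the arrays labelled silenced. The arrays labelled silenced all lay above the control arrays, by only 0.063 between the nearest pair, and on control replicate 1 both of its probe sets were at exactly 0. WNT11 rose by 0.31 (means -0.141 ± 0.128 and 0.171 ± 0.119, SD, n = 3 each, SE 0.084, limma adjusted p = 0.04). Its 2 probe sets had changes of 0.34, which was called, and 0.29, which was not. Leaving out control replicate 2 or 3, or silenced replicate 2 or 3, ended the call, with changes from 0.25 to 0.32.

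WNT5A, the best known noncanonical ligand, did not pass, although its groups did not overlap. It read -0.049, -0.058 and -0.071 on the control arrays and 0.011, 0.113 and 0.152 on the arrays labelled silenced, a change of 0.15 (SE 0.057, limma adjusted p = 0.13). All 5 of its probe sets had positive changes, from 0.04 to 0.30, and the lowest adjusted p among them was 0.11 (limma). WNT5B, its close relative, had a change of -0.14 (SE 0.065, limma adjusted p = 0.25), also not called, with overlapping groups. The 2 relatives thus had changes of opposite sign, neither past the threshold, and the difference between them was not tested.

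The other 15 ligands had changes between -0.15, in WNT10B, and 0.08, in WNT9A. Among them are WNT1, WNT3A and WNT8A, which act through beta-catenin, with changes of -0.06, -0.04 and 0.04. WNT2 and WNT9B, which liver endothelial cells are known to supply to hepatocytes, had changes of 0.04 and -0.01. WNT4, WNT6, WNT7A and WNT7B had changes of -0.09, 0.04, 0.04 and 0.001, and WNT2B, WNT8B, WNT10A and WNT16 lay between -0.03 and 0.07. Only WNT11 and WNT5A of the 18 had groups that did not overlap, 11.1% of the ligands against 29.3% of all genes.

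DKK1, the secreted antagonist that keeps LRP5 and LRP6 from joining the receptor, was lower on the arrays labelled silenced. It read -0.051, 0.072 and 0 on the control arrays and -0.521, -0.484 and -0.422 on the arrays labelled silenced. The groups stood well apart, with no array labelled silenced within 0.3 of a control array. DKK1 was 1.4-fold lower, a log2 change of -0.48 (means 0.007 ± 0.0619 and -0.475 ± 0.0499, SD, n = 3 each, SE 0.058, limma adjusted p = 0.00075). It rests on 1 probe set, whose identifier lacks the suffixes of shared probe sets.

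No other dickkopf gene was called. DKK2 and DKK4 had changes of -0.06 and -0.09, DKK3, which does not act on LRP5 and LRP6 as DKK1 does, 0.003 over 6 probe sets, and DKKL1, a relative found mainly in testis, -0.02. None of the 4 SFRP genes was called (0 of 4 by limma, and 0 at an unadjusted p under 0.05). SFRP1, SFRP2 and SFRP5 had changes of 0.05, 0.02 and 0.05, and SFRP4 of -0.06. The single probe sets of SFRP1 ran from -0.09 to 0.24.

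LGR4, a receptor for R-spondins, read -0.192, -0.235 and -0.137 on the control arrays and -0.016, 0.002 and 0.025 on the arrays labelled silenced. The groups did not overlap. LGR4 rose by 0.19 (means -0.188 ± 0.049 and 0.004 ± 0.0207, SD, n = 3 each, SE 0.054, limma adjusted p = 0.047). One probe set carried the change, 0.31, and the other had 0.07 (limma adjusted p = 0.019 and 0.55). This was the least stable of the 6 calls: it was lost when any of the 6 arrays was left out, with changes between 0.17 and 0.22, and without probe sets ending in _s_at or _x_at, which can match other genes, the change was 0.07 (limma adjusted p = 0.52).

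LGR5, the second R-spondin receptor, marks cells around the central vein in liver and is a target of beta-catenin. It read -0.159, -0.518 and -0.181 on the control arrays and -0.059, -0.019 and 0.041 on the arrays labelled silenced. The groups did not overlap, but control replicate 2 lay far below the other controls. The change was 0.27 (SE 0.095) and did not pass (limma adjusted p = 0.1). Its 2 probe sets had changes of 0.47 and 0.08, and on the first control replicate 2 read -1.034. RNF43 and ZNRF3, which remove frizzleds from the surface, had changes of -0.09 and 0.06.

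The co-receptor genes LRP5 and LRP6 had changes of -0.09 and -0.008, the scaffold genes AXIN1 and AXIN2 of 0.08 and -0.09, and the factor genes LEF1, TCF7L1 and TCF7L2 of -0.05, -0.02 and -0.02. None of these 7 genes was called (0 by limma, and 0 at an unadjusted p under 0.05). LEF1 and TCF7L2 were read by 9 and 7 probe sets, none of which was called. In 43 of the 44 genes that did not pass, the 95% interval lay within 0.5 of 0 on the log2 scale, which leaves room for changes of up to 41.4% upward. The exception was FZD6.

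**Figure D2:**
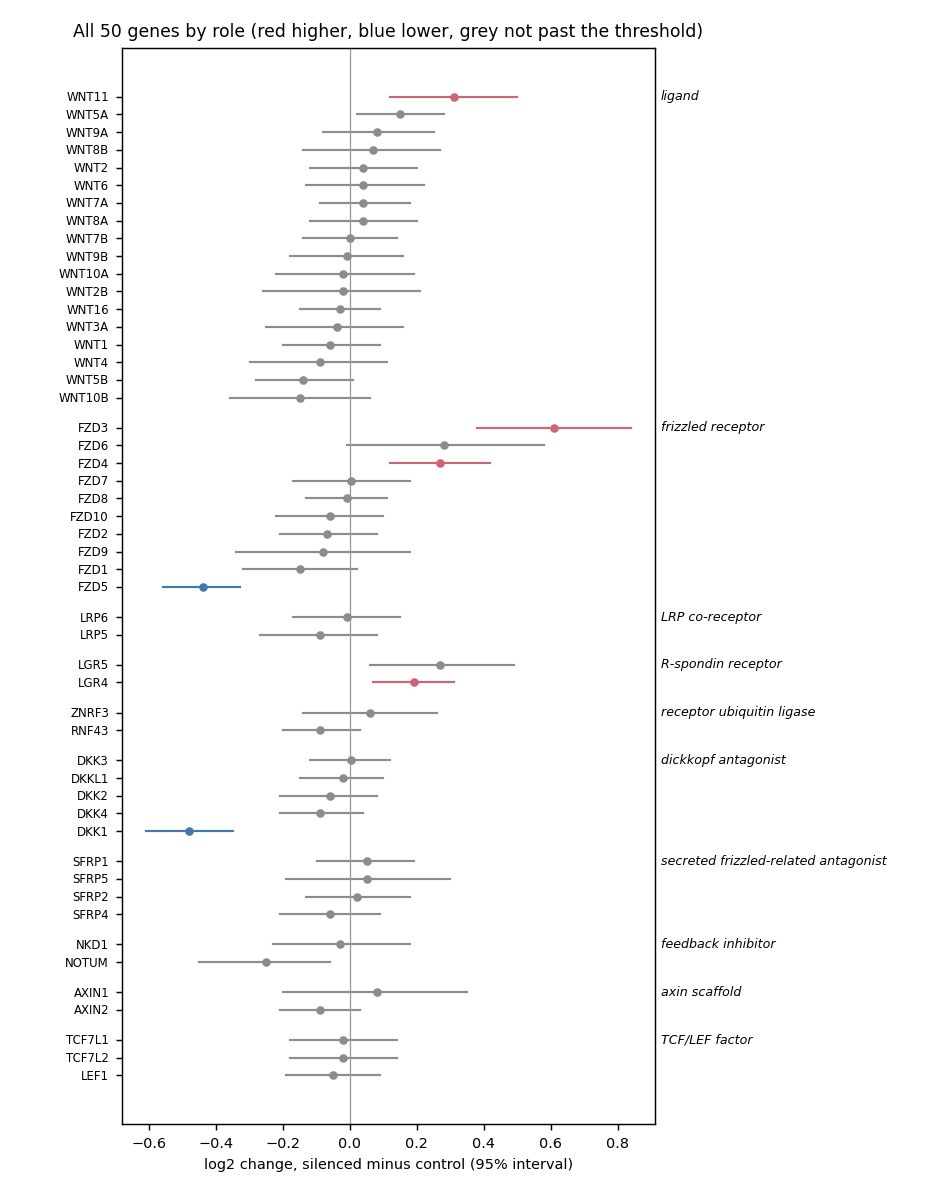
Log2 change of each of the 50 genes (horizontal axis, silenced minus control, with its 95% interval), grouped by role and ordered by change within a role. Red marks genes called higher, blue genes called lower and grey the others. FZD3 and DKK1 lie farthest from 0, at 0.61 and -0.48, and the intervals of the TCF/LEF factors and SFRP genes all cross 0.

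AXIN2, DKK1, LEF1, LGR5, NKD1, NOTUM, RNF43 and ZNRF3 are known feedback targets of beta-catenin, and were grouped here with their values known. Of these 8 genes 1, DKK1, was called, 12.5% against 13.3% of all genes. NOTUM read 0.239, 0.308 and 0 on the control arrays and -0.162, -0.025 and -0.028 on the arrays labelled silenced. Its change of -0.25 (SE 0.086) did not pass (limma adjusted p = 0.094), and without control replicate 3, the control closest to the other group, it was -0.35 and passed (limma adjusted p = 0.022). AXIN2, often used as a readout of the pathway, read 0.032, 0.073 and 0.111 against -0.005, -0.031 and -0.016, a change of -0.09 (SE 0.052, limma adjusted p = 0.35).

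RNF43 read -0.018, 0.029 and -0.042 on the control arrays and -0.095, -0.096 and -0.097 on the arrays labelled silenced. These 3 nearly equal means came from 6 probe sets that differed widely among themselves, one of which read 0, -0.431 and -0.489. NKD1, an inhibitor that binds dishevelled, had a change of -0.03. In AXIN2, DKK1, LGR5, NOTUM and RNF43 the groups did not overlap, 5 of the 8 feedback targets against 29.3% of all genes. The 8 were grouped with their values known, so this share is no test of them. Of these 5 genes 4 did not pass. DKK1, NOTUM, AXIN2 and RNF43 lay on the low side and LGR5 on the high side of the control arrays.

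At the level of single probe sets 8 of the 129 were called, 3 in FZD5, 2 in FZD3 and 1 each in DKK1, WNT11 and LGR4, against 10.7% of all probe sets. Of the 50 genes 15 had 1 probe set and 35 had several. Exact zeros made up 21.6% of the values of these probe sets, and 17% to 21.1% of the values of each array over all probe sets. Besides FZD5, wide spans between probe sets of a gene were found in LGR5 (0.39), LEF1 (0.35) and SFRP1 (0.32).

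**Figure D3:**
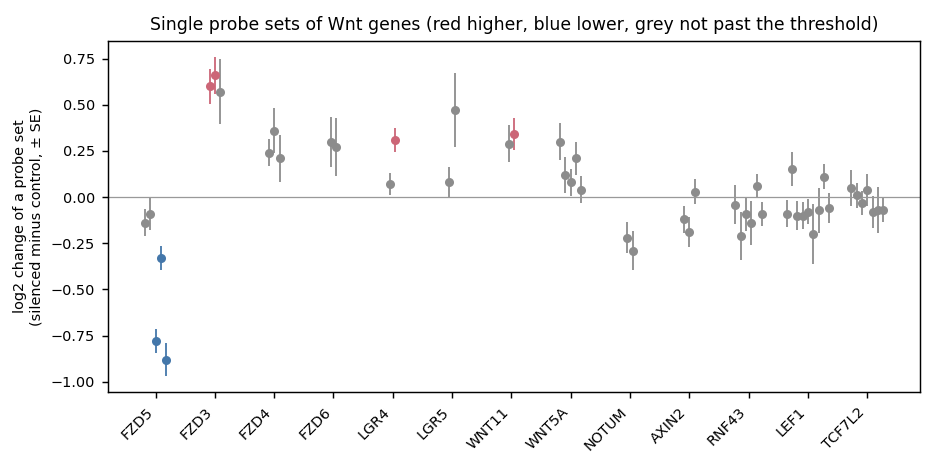
Log2 change of single probe sets (vertical axis, silenced minus control, ± SE) of 13 Wnt genes. Red and blue mark probe sets called higher and lower. The 3 probe sets of FZD3 lie together at 0.57 to 0.66, while the 5 of FZD5 spread from -0.88 to -0.09.

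Further genes of the pathway were taken from 5 lists, which hold 99 other measured genes. Of these 28 were called, 16 higher and 12 lower, 28.3% against 13.3% of all genes. The count was 17 without silenced replicate 3, where 9.05% of all genes were called. The median size of the change was 0.109, against 0.0788 for all genes, and the median change was -0.011. The lists were chosen with earlier results of these data known, so their shares are no test of the pathway. They were not tested as sets.

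Of 21 genes of Wnt secretion, co-receptors and extracellular modulators 1 was higher, 2 were lower and 18 did not pass. The share called was 14.3%, against 13.3% of all genes. CER1, which encodes cerberus, a secreted antagonist of Nodal, BMP and Wnt ligands, read 0.99, 1.393 and 1.589 on the control arrays and -0.21, 0.147 and -0.119 on the arrays labelled silenced. The groups lay far apart, and CER1 was 2.61-fold lower, a log2 change of -1.38, larger than that of any of the 50 genes (SE 0.148, limma adjusted p = 0.00038, 1 probe set). GPC3, a glypican that binds Wnt ligands and a marker of hepatocellular carcinoma, rose by 0.43, with changes from 0.42 to 0.44 on its 3 probe sets, all called, and its relative GPC4 fell by 0.34. R-spondin genes, WLS, ROR1, ROR2 and WIF1 were among those that did not pass.

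Of 18 genes of the destruction complex and dishevelled 2 were higher, none lower (0) and 16 did not pass, and 5 had an unadjusted p under 0.05 (limma). The share called was 11.1%, against 13.3% of all genes. GSK3B, a kinase that marks beta-catenin for degradation, rose by 0.23 (SE 0.054, limma adjusted p = 0.021) and the casein kinase gene CSNK1D rose by 0.26. The call of GSK3B held under 10 of the 14 alternatives that measured it and that of CSNK1D under 9 of 15. Without probe sets ending in _s_at or _x_at GSK3B was not measured. CTNNB1, the gene of beta-catenin, had a change of 0.03 (95% interval -0.13 to 0.19, limma adjusted p = 0.87) over 8 probe sets, none of them called. APC had a change of 0.09 (limma adjusted p = 0.46).

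Of 19 nuclear partners of beta-catenin 4 were higher, 2 lower and 13 did not pass, 31.6% called against 13.3% of all genes. The co-repressor genes of the TLE family went both ways: TLE3 rose by 0.41 and TLE4 by 0.34, while TLE1 fell by 0.46. TBL1XR1, a cofactor of beta-catenin, rose by 0.47, BCL9, which links beta-catenin to the transcription machinery, by 0.28, and the co-repressor gene CTBP2 fell by 0.27. The call of CTBP2 held under only 5 of 15 alternatives, and its change was -0.17 without probe sets ending in _s_at or _x_at (limma adjusted p = 0.43). Of 18 genes of planar polarity and the noncanonical branch 4 were higher, 2 lower and 12 did not pass, 33.3% called. ANKRD6, the gene of diversin, which binds dishevelled, rose by 0.85 (SE 0.078, limma adjusted p = 0.00017), CAMK2D rose by 0.40, PRKCA by 0.31 and PRICKLE1 by 0.28. PRKCA was not called with the median of its probe sets, a change of 0.16 (limma adjusted p = 0.3), and PRICKLE1 was not without probe sets ending in _s_at or _x_at, a change of 0.13 (limma adjusted p = 0.31). The planar polarity cadherin gene CELSR1 fell by 0.62 (SE 0.063, limma adjusted p = 0.00031) and RHOA, called under 8 of 15 alternatives, fell by 0.24.

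Of 23 genes reported as beta-catenin targets in liver and hepatoma 5 were higher, 6 lower and 12 did not pass. The share called was 47.8%, against 13.3% of all genes. OAT, which encodes ornithine aminotransferase, had a log2 change of -1.06, which is 2.08-fold lower (SE 0.065, limma adjusted p = 1.9e-05). It rests on 1 probe set, which ends in _s_at and can match other genes. The protease gene MMP7 was 1.72-fold lower (log2 change -0.79). Of the 4 probe sets of MMP7, 3 were called, with changes from -1.34 to -0.66, and 1 had a change of 0.01. SP5, a factor induced by Wnt signals in many tissues, fell by 0.38 (SE 0.061, limma adjusted p = 0.0033), CCND1, the gene of cyclin D1, fell by 0.46 and BMP4 fell by 0.35. GLUL, the gene of glutamine synthetase and a marker of hepatocytes around the central vein, rose by 0.24 (SE 0.053, limma adjusted p = 0.018), MYC rose by 0.28 and CD44 rose by 0.39. PROX1 and BIRC5 rose by 0.30 and 0.20 and TNFRSF19 fell by 0.29, named to complete the count with their values known. The call of GLUL was lost under 5 of the 15 alternatives that measured it, where its sign stayed the same. The 5 probe sets of GLUL had changes of 0.36, 0.42 and 0.39, all called, and of -0.03 and 0.06, not called. Without probe sets ending in _s_at or _x_at the change of GLUL was 0.18 (limma adjusted p = 0.091). The call of MYC was lost under 5 of 15. BIRC5 was called under only 5 of 16, and on probe sets that end in _at alone its change was -0.03 (limma adjusted p = 0.94).

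**Figure D4:**
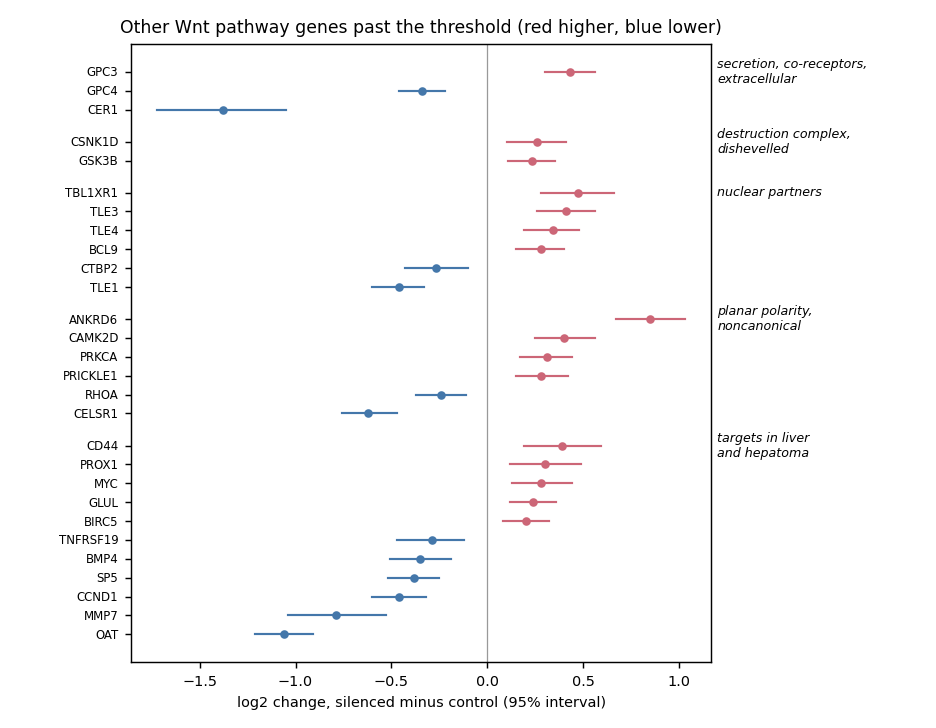
Log2 change (horizontal axis, silenced minus control, with its 95% interval) of the 28 called genes on the 5 lists of other Wnt genes. Red marks genes called higher and blue genes called lower. CER1 at -1.38, OAT at -1.06 and ANKRD6 at 0.85 lie farthest from 0, and the target genes fall on both sides of it.

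Arrays with the same label correlated with r from 0.406 to 0.67 across probe sets, which are not independent replicates. Arrays with different labels had r from -0.273 to 0.0676. These are correlations of centred values, and centring can itself lower r between the groups. Their size therefore does not measure how alike the arrays were. Marker lists of liver cell types were read against the 13.3% of all genes called. These lists too were chosen with earlier results of these data known, so their shares are no test. Of 11 hepatocyte markers 6 were higher and 1 lower, 63.6% called, and their mean value lay between -0.23 and -0.143 on the control arrays and between 0.086 and 0.094 on the arrays labelled silenced. Of 8 cholangiocyte markers 4 were lower and 1, SPP1, was higher, 62.5% called. SPP1 had a change of 1.83, and KRT19, EPCAM, KRT7 and SOX9 had changes of -0.50, -0.46, -0.40 and -0.31. The means of this list overlapped, between -0.082 and -0.049 on the control arrays and between -0.094 and 0.019 on those labelled silenced. They join these opposite changes and do not show an unchanged list. Of 8 markers each of stellate cells and fibroblasts, of leukocytes and of endothelium, 1, 1 and 0 were called by limma, the first being COL1A2 and the second LYZ, both higher, which is 12.5%, 12.5% and 0% of these lists and no more than among all genes, with 0 endothelial genes at an unadjusted p under 0.05. Centred values do not show whether a defining marker was near background, and the part of the hepatocyte and cholangiocyte markers in the Wnt results was not tested.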

How the data were processed

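Biotin-labelled RNA of 6 samples was hybridised to 1-colour arrays, 3 per group. The authors deposited values made with RMA, taken here as log2 (background correction, quantile normalisation and probe summary), per the submitters' processing notes (version not given in the sources used here). Every array had a median of 0 and 17% to 21.1% exact zeros, so the values were taken as set relative to a baseline of each probe set. That baseline and the log base are not given in the sources used here. Base 2, RMA's usual base, is assumed, and the baseline may include arrays not analysed here. A baseline per probe set cancels in differences between groups.

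Of 49395 probe sets 102 control probe sets were left out. The 44988 with 1 symbol were averaged per gene, because centred values give no level to choose a probe set by. No symbol needed updating (0). Groups were compared with limma 3.58.1 in R 4.3.3 (lmFit, eBayes, no block), with Benjamini-Hochberg adjustment over all genes or over all 49293 probe sets. SE and 95% intervals are limma's, with moderated variances. The method was tested on simulated data first. The number of arrays limits the precision.

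The members and lists were chosen with earlier results of these data known. All members are described, the called ones with every array's value. From each of 5 further lists the called genes are named, up to the 6 largest, besides CTNNB1, APC, GSK3B, GPC3, GLUL, MYC and CCND1. Alternatives were the replicate block, each array left out, other summaries and choices of probe sets, other variance models, array weights and other scalings. Background correction and a filter on dim probes could not be varied on centred values.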

Additional observations from a re-analysis of the deposited data

How the results depend on the processing

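FZD5 and DKK1 were called under all 16 alternatives, with changes from -0.88 to -0.33 and from -0.54 to -0.45. FZD3 was called under 14 of 15, WNT11 under 10 of 15, FZD4 under 9 of 16 and LGR4 under 5 of 15, always with the same sign. LGR5 passed with array weights alone (limma adjusted p = 0.047), NOTUM without control replicate 3 alone. The count of called Wnt genes, 6, was 3 to 5 with 1 array left out, that of higher ones 1 to 3 and that of lower ones 2 to 3. Of all genes 9.05% to 12.6% were called with 1 array left out.

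Probe sets that end in _at alone leave 30 of the 50 genes, without FZD3, WNT11 and LGR4. With them 2 genes were called, 0 of them higher (1 at an unadjusted p under 0.05, limma). Among all 8354 genes measured by such probe sets 6.76% were called. Of the genes called higher with all probe sets, FZD4 alone was measured, with a change of 0.30 (limma adjusted p = 0.056). In this setting 3 probe sets and 6 of the other Wnt genes were called. The change of BIRC5 was then -0.03, against 0.20. Without probe sets ending in _s_at or _x_at, an alternative chosen after seeing the data, 5 probe sets were called. Taking each gene's most variable probe set left 2 genes higher, where 12.8% of all genes were called in either direction. The count of other Wnt genes was 17 to 25 with 1 array left out, and 12 of the 28 stayed past the threshold wherever measured.

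Replicate numbers are shared by the groups, but same-numbered arrays did not deviate together across all probe sets (r = -0.036, -0.058 and -0.029). These values cannot show whether such arrays shared a culture or a run, which the labels do not give. With the replicate block 4 Wnt genes were called, 2 of them higher, and WNT11 and LGR4 were not (limma adjusted p = 0.053 and 0.12). Of all genes 11.4% were called with the block. KCNN4 was not called under any alternative that measured it, and has only probe sets of the _x_at kind. The cause of these differences was not tested.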
